A study of Mus musculus with 6 samples.

Results

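The clustered replication-dependent histone genes were described through the accessible regions that lie on or next to them in mouse embryonic stem cells. A region was counted when its midpoint lay within 5 kb of a protein-coding gene on chromosome 13, 3 or 11 whose symbol is H1f, H2ac, H2bc, H3c or H4c followed by a number. This gave 44 of 69689 regions around 63 genes, with 36 regions around 53 genes on chromosome 13 and 8 regions around 10 genes on chromosome 3. No symbol on chromosome 11 matched. The regions come from ACC-seq, a tagmentation assay that cuts open DNA and adds sequencing adapters to it. The 6 libraries were made from wild-type embryonic stem cells of the R1 line, grown on inactivated embryonic fibroblast feeders in serum with LIF and the inhibitors CHIR-99021 and PD0325901. The Fix, 1,6-Hex cells (2 libraries) were held in 10% 1,6-hexanediol, an alcohol that disperses many condensates, for 30 s before and again during fixation in 1% formaldehyde for 10 min. The Fix cells (2 libraries) received the same fixation without the alcohol, and the Fresh cells (2 libraries) were not fixed. Tagmentation ran for 30 min at 55 °C in both fixed groups and at 37 °C in the Fresh group.

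The deposited table names 1 of 9 clusters for each region, covers all libraries together and holds no value per library. Sequencing depth is unknown, what sets the clusters apart in accessibility was not given in the sources at hand, and no contrast between Fix, 1,6-Hex, Fix and Fresh cells can be drawn for these genes. The loci were chosen by their cluster names, since the many cluster 3 regions at histone genes were already known. The cluster counts below therefore describe the loci and carry no test. Intervals are exact Clopper-Pearson 95% intervals that cover counting error only, and neighbouring regions are not independent. All 9 embryonic stem cell markers checked, among them Nanog, Pou5f1 and Sox2, had a region within 1 kb of a gene end, as did 5 of 8 markers of feeder fibroblasts, against 60.9% of all protein-coding genes.

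Replication-dependent histone genes supply the core histones H2A, H2B, H3 and H4, which wrap DNA into nucleosomes, and the linker histone H1, which binds between them. They lack introns, are transcribed in S phase, and their mRNAs end in a stem-loop in place of a poly(A) tail. In the nucleus their loci gather factors such as NPAT and FLASH into the histone locus body, a condensate of transcription and RNA processing factors. Embryonic stem cells divide fast and spend much of their cycle in S phase.

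Promoter sequences of the genes on which the description turns are shown first, as RefSeq gives them for GRCm38.p6, the assembly of mm10. H2A and H2B genes often stand back to back, and the stretch between the starts is then the promoter of both. The printed stretches end just before the annotated start of the gene that opens the line, and capitals mark matches, on either strand, to the TATA box TATAAA, the NF-Y motif CCAAT, the octamer ATTTGCAT bound by POU factors, the AC box AAACACA of H1 promoters, the HINFP motif core GCGGACG and the CRE motif TGACGTCA. The H4c6 stretch holds no exact match to these strings. The set pairs back-to-back promoters inside the widest region with an H4 promoter, H1 promoters of different clusters and testis-type genes.
H2bc8 with H2ac8, the whole 179 bp between their starts, chr13:23571221-23571399, plus strand: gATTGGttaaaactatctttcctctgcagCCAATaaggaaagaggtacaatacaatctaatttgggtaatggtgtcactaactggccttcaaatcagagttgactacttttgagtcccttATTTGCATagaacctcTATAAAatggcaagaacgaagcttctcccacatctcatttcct
H2ac7 with H2bc7, the whole 173 bp between their starts, chr13:23574208-23574380, plus strand: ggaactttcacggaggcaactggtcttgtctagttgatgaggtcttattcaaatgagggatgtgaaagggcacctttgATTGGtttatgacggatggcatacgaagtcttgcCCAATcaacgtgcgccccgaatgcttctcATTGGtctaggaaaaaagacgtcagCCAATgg
H4c6, chr13:23551669-23551818, minus strand: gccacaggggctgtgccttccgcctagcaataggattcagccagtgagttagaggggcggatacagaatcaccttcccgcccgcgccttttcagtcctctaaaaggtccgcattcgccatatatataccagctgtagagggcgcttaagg
H1f3, chr13:23554882-23555031, plus strand: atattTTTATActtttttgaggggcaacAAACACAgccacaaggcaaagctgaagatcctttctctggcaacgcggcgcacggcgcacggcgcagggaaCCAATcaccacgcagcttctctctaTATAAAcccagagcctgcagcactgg
H1f2, chr13:23738657-23738806, plus strand: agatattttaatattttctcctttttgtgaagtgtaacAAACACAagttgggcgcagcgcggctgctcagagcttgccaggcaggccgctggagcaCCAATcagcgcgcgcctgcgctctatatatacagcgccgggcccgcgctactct
H1f6, the testis H1t gene, chr13:23695661-23695810, plus strand: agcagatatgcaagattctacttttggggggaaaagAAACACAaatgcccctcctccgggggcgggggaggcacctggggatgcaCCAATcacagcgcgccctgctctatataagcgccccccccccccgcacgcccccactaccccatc
H2ac1, of the testis pair H2bc1 and H2ac1, chr13:23934187-23934436, plus strand: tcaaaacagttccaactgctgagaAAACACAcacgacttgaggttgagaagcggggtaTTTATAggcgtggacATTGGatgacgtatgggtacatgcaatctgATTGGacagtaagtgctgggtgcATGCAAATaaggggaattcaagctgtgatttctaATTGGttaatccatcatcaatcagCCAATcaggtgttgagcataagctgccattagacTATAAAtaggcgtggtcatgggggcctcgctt

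Accessible regions at the histone loci were wide and belonged mostly to clusters 2, 3 and 4, a grouping made with earlier results of these data known. Of the 44 regions, 14 belonged to cluster 3 (31.8%, 95% CI 18.6 to 47.6), against 3.61% of all regions. Cluster 4 held 6 (13.6%, 5.17 to 27.4), against 3.47%, and cluster 2 held 5 (11.4%, 3.79 to 24.6), against 2.27%. Together these clusters held 25 of 44 (56.8%, 41.0 to 71.7), against 9.36% of all regions and 11.8% of 47528 regions within 5 kb of another protein-coding gene. The remaining 19 were spread over all the other clusters, with 6 in cluster 1 (13.6%, against 18.7% of all regions), 3 each in clusters 5, 6, 7 and 8 (6.82% each, against 5.06%, 12.7%, 18.9% and 9.04%), and 1 in cluster 9 (2.27%, against 26.2%).

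Much of this composition went with the transcription starts. A start of a histone gene lay inside 31 of the 44 regions, and 24 of these 31 (77.4%, 58.9 to 90.4) belonged to clusters 2 to 4, 13 of them to cluster 3 (41.9%, 24.5 to 60.9). Of 10209 other regions that hold the start of a protein-coding gene, 37.6% belonged to clusters 2 to 4 and 14.5% to cluster 3. Cluster 8 was the most frequent single cluster at those other starts (24.4%). Among regions that hold at least 2 starts the shares in clusters 2 to 4 were 11 of 15 (73.3%, 44.9 to 92.2) at the histone loci and 545 of 859 (63.4%, 60.1 to 66.7) elsewhere. Those intervals overlap. Such regions were 15 of the 31 with a start at the histone loci and 859 of the 10209 elsewhere, so this comparison covers only a part of each set. Regions with a single start were not counted apart. Of the other start regions at least as wide as the median histone region, 788 of 2171 (36.3%) belonged to clusters 2 to 4. Of those on chromosomes 13 and 3, 291 of 910 (32.0%) did. Of the 13 regions with no start listed, 1 belonged to clusters 2 to 4 (7.69%, 0.195 to 36.0), the region over H4c14, for which the promoter table has no entry.

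**Figure D1:**
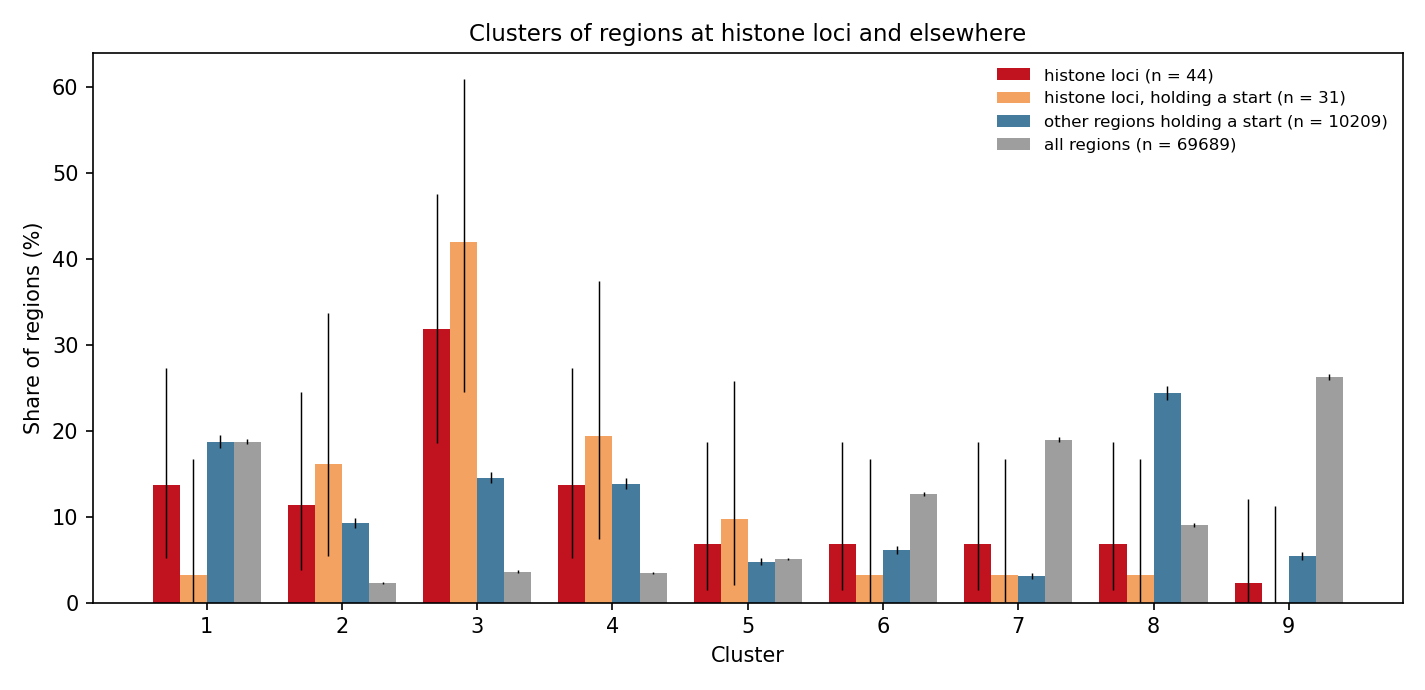
Share of regions (%) in each of the 9 clusters for the 44 regions at histone loci, the 31 of them that hold a histone gene start, 10209 other regions that hold a gene start and all 69689 regions. Lines are exact 95% binomial intervals; cluster 3 holds 31.8% of the regions at histone loci and 3.61% of all regions.

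The chromosome 13 genes fell into 4 blocks separated by more than 100 kb. The first block (21715711 to 21833475, H2bc13 to H2ac24) had 17 genes and 11 regions, and read along the chromosome the clusters were 3, 5, 8, 7, 2, 4, 3, 2, 6, 1 and 1. The second block (22035122 to 22043658, H2ac12 to H2bc11) had 5 genes and 3 regions, of clusters 1, 2 and 3. The third and longest (23531044 to 23764412, H4c8 to H1f1) had 29 genes and 21 regions, 15 of them in clusters 2 to 4. The testis pair H2bc1 and H2ac1 formed the last, with 1 region of cluster 6. Cluster 3 thus recurred along the locus without forming 1 unbroken run.

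On chromosome 13 clusters 2 to 4 held 22 of 36 regions (61.1%, 43.5 to 76.9), and on chromosome 3 they held 3 of 8 (37.5%, 8.52 to 75.5). The chromosome 3 block (96219885 to 96270192, H2ac21 to H2bc18) had regions of clusters 3, 7, 1, 8, 8, 3, 3 and 6, and cluster 3 accounted for all 3 of its regions in clusters 2 to 4. Cluster 3 made up 11 of 36 regions on chromosome 13 (30.6%, 16.3 to 48.1) and 3 of 8 on chromosome 3 (37.5%). With 8 regions on chromosome 3, intervals for the loci overlap widely.

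**Figure D2:**
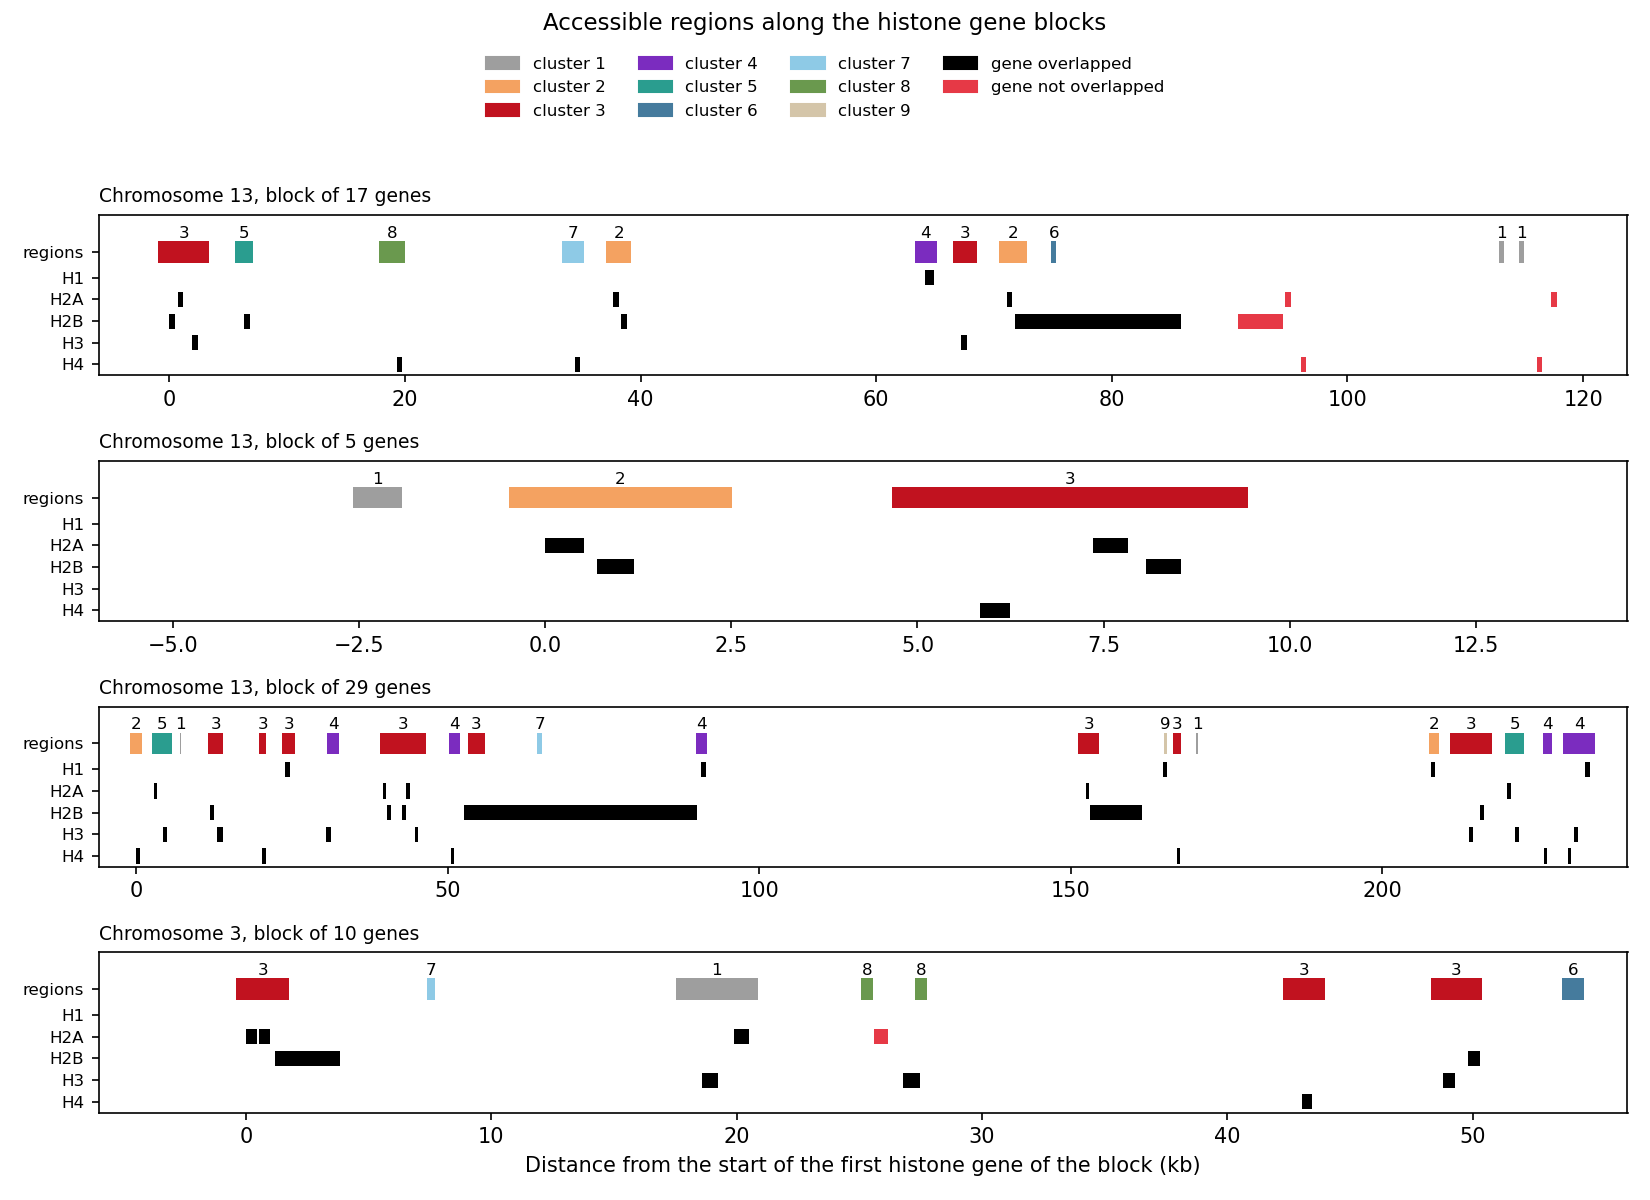
Regions (top row of each panel, coloured and numbered by cluster) and genes (H1, H2A, H2B, H3 and H4 rows) in the 4 larger blocks, by distance in kb from the start of the first histone gene; very short genes are widened to stay visible. Genes not overlapped by a region, 5 at the right of the 17-gene block and 1 in the chromosome 3 block, are in red.

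Pairs of neighbouring histone regions were often both in clusters 2 to 4, and were of the same cluster about as often as pairs elsewhere. Clusters 2 to 4 held 25 of 44 histone regions, and 24 of 31 that hold a start. Such pairs are therefore frequent whatever the order of the regions. Their shares do not show that neighbours resemble each other. Of 33 pairs of adjacent histone regions with midpoints within 20 kb, 12 had both regions in clusters 2 to 4 (36.4%), against 1.04% of 45174 pairs elsewhere. Where both regions held a start, this was 11 of 18 pairs (61.1%), against 17.2% of 976 pairs elsewhere. The same cluster was found in 6 of the 33 pairs (18.2%), close to the 19.3% of pairs elsewhere, and in 3 of the 18 (16.7%), against 16.7%.

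The histone regions were wide. Their median width was 1859 bp (range 200 to 7402), against 474 bp over all regions and 1174 bp over other regions that hold a gene start. A width of at least 3 kb was reached by 9 of 44 (20.5%), against 2.10% of all regions and 6.37% of other regions with a start. Regions that hold a histone start had a median of 2143 bp and none was narrower than 727 bp, while the 13 without a listed start had a median of 458 bp. Within cluster 3 the histone regions had a median of 2259.5 bp (1134 to 7402), against 1263 bp for the cluster 3 regions over starts of other genes.

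Wider regions lay over more histone genes, which among closely spaced genes follows in part from how overlap is counted. The 8 regions that overlapped no histone gene had a median of 449.5 bp, the 19 over 1 gene 1720 bp, the 12 over 2 genes 2702 bp, the 4 over 3 genes 4550 bp, and the single region over 5 genes spanned 7402 bp. All 5 regions over 3 or more genes were in cluster 3 or 4, and none of the 8 that overlapped no gene was in clusters 2 to 4. The narrowest region over 2 genes, that of H2bc1 and H2ac1, spanned 727 bp.

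The widest region (chr13:23570136-23577537, cluster 3) covered H2ac8, H2bc8, H2bc7, H2ac7 and H3c4, and both back-to-back promoters printed first lie inside it. The next (chr13:23741850-23748657, 6808 bp, cluster 3) covered H3c3 and H2bc3. A cluster 4 region of 5274 bp (chr13:23759992-23765265) covered H4c1, H3c1 and H1f1. Cluster 3 regions of 4775 bp (chr13:22039782-22044556) and 4325 bp (chr13:21714783-21719107) covered H4c9, H2ac11 and H2bc11, and H2bc13, H2ac13 and H3c10. On chromosome 3 the widest, of 3336 bp (chr3:96237415-96240750), covered H3c15 and H2ac19 and belonged to cluster 1.

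**Figure D3:**
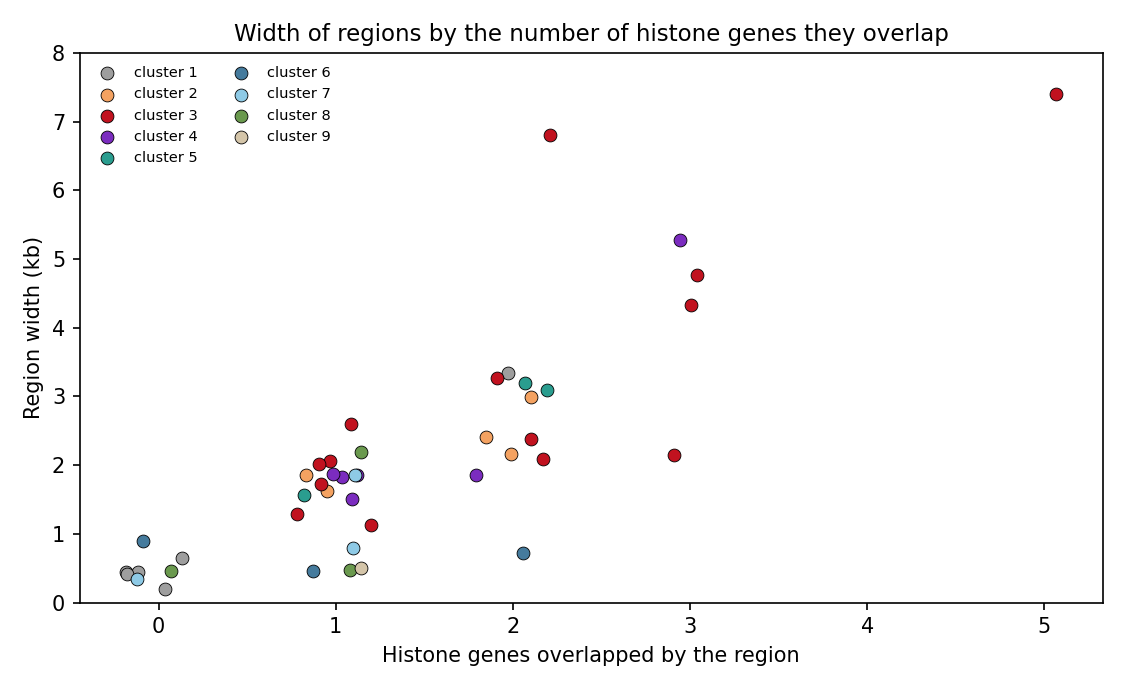
Width of each of the 44 regions (kb) against the number of histone genes it overlaps, coloured by cluster, with points spread sideways for legibility. Regions over no gene lie at or below 903 bp, and the region over 5 genes spans 7402 bp.

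Accessible regions overlapped 57 of the 63 histone genes (90.5%), against 72.9% of 21887 protein-coding genes. Among genes of at most 1 kb, a size that suits these intronless genes, 53 of 58 (91.4%) were overlapped, against 3.95% of 1519 other genes of that size and 7.17% of both together. These groups were not matched for expression. Counted by region midpoints within 1 kb of a gene end, the number was 51 of 63 (81.0%), against 60.9% of protein-coding genes. The annotated start lay inside a region for 50 of the 58 histone genes in the promoter table (86.2%), against 61.4% of 17492 protein-coding genes there. The entries missing from that table are H2bc21, H4c14, H3c7, H2bc4 and H3c1.

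A region of clusters 2 to 4 overlapped 44 of the 63 genes, and 28 of these had one of cluster 3, 9 of cluster 4 and 8 of cluster 2, with H2bc6 counted under both 3 and 4. Of all protein-coding genes, most of them longer, 27.3% were overlapped by a region of clusters 2 to 4 and 11% by one of cluster 3. Another 13 were overlapped by other clusters only, and 6 were not overlapped. Every histone type was represented in clusters 2 to 4.

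Of the H1 genes, 5 of 6 were in clusters 2 to 4. H1f1, H1f4 and H1f5 were overlapped by cluster 4 regions, H1f2 by a cluster 2 region of 1618 bp and H1f3 by a cluster 3 region of 2020 bp. H1f6 encodes the linker histone H1t of the male germ line. It was overlapped by a cluster 9 region of 502 bp (chr13:23695961-23696462) that lies past its start, so that the H1f6 promoter printed above was outside any region. H4c3, its neighbour, had a cluster 3 region over its start (chr13:23697521-23698811).

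Of the H2A genes, 10 of 17 were in clusters 2 to 4, and of the H2B genes 13 of 16. Cluster 3 regions overlapped 7 H2A genes, H2ac6, H2ac7, H2ac8, H2ac11, H2ac13, H2ac20 and H2ac21. They overlapped 10 H2B genes, H2bc3, H2bc4, H2bc6, H2bc7, H2bc8, H2bc9, H2bc11, H2bc13, H2bc18 and H2bc21. Cluster 2 took whole pairs, H2ac12 with H2bc12, H2ac15 with H2bc15 and H2ac22 with H2bc22. H2bc6 and H2bc22 are annotated as long transcription units (37455 and 14079 bp), and both also had an internal region, of cluster 7 and cluster 6.

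Back-to-back starts within 1 kb were found for 9 pairs, each an H2A gene with an H2B gene and 163 to 280 bp apart. Both starts lay in 1 region in 8 of the 9 pairs, a share also high among other divergent protein-coding pairs (701 of 738, 95%). Of these 8 shared regions, counted per pair, 7 were in clusters 2 to 4, against 66% of such regions of other pairs, and 4 were in cluster 3, against 21.8%. The H2ac8 and H2ac7 pairs share 1 region and count as 2 of the 4. The eighth was the testis pair, whose cluster 6 region spanned 727 bp (chr13:23933965-23934691). The pair without a region was H2bc23 with H2ac23.

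Of the H3 genes, 8 of 12 were in clusters 2 to 4. Cluster 3 regions overlapped H3c3, H3c4, H3c7, H3c10, H3c11 and H3c13, and cluster 4 regions H3c1 and H3c6. H3c2 and H3c8 had cluster 5 regions of 3095 and 3203 bp, each shared with an H2A gene (H2ac4 and H2ac10). The third cluster 5 region of the loci, of 1569 bp, overlapped H2bc14. H3c15 had a cluster 1 region and H3c14 a cluster 8 region.

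Of the H4 genes, most of which encode the same protein, 8 of 12 were in clusters 2 to 4. H4c3, H4c6, H4c9 and H4c14 had cluster 3 regions, H4c1, H4c2 and H4c4 cluster 4 regions and H4c8 a cluster 2 region. H4c11 had a cluster 8 region of 2188 bp and H4c12 a cluster 7 region of 1858 bp, the widest regions of those clusters at these loci. H4c17 and H4c18 were not overlapped.

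**Figure D4:**
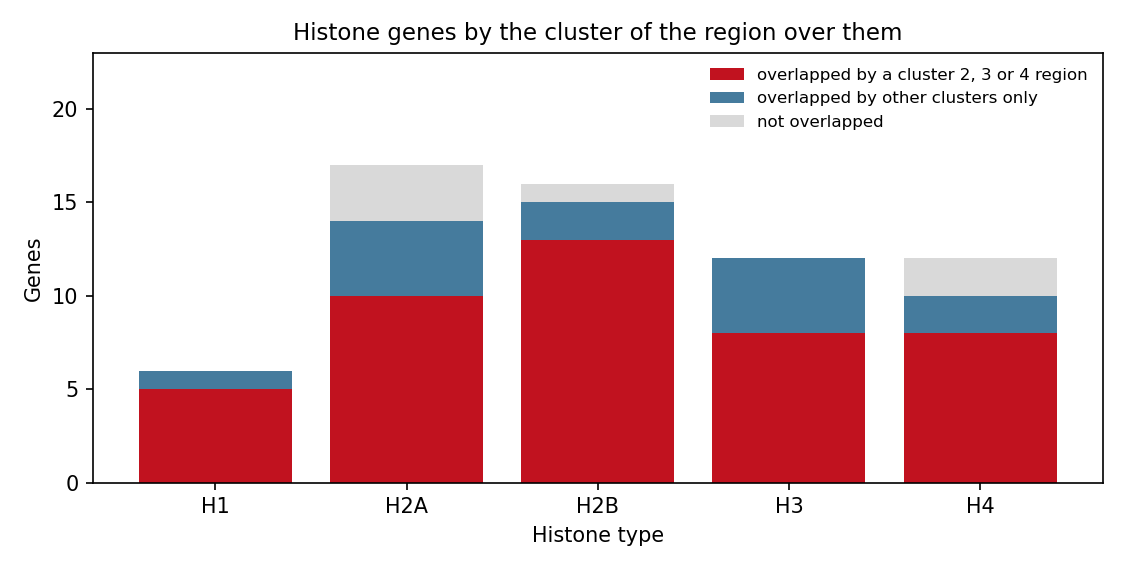
Number of histone genes of each type overlapped by a region of cluster 2, 3 or 4, by regions of other clusters only, or by none. Clusters 2 to 4 overlapped 5 of 6 H1, 10 of 17 H2A, 13 of 16 H2B, 8 of 12 H3 and 8 of 12 H4 genes.

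The 6 genes not overlapped were H2bc23, H2ac23, H4c17, H4c18 and H2ac24, at the far end of the first chromosome 13 block, and H2ac18 on chromosome 3. The promoter windows of H4c17 and H4c18 were 99.3% identical. H2ac18 and H2ac19 were 85.3% identical, H3c14 and H3c15 94.7%, H4c11 and H4c12 91.7%, and H2ac23 and H2ac7 83.7%, and no other pair reached 80%. H2bc23 and the neighbouring gene listed as H4bc24 have the same annotated length, 3788 bp. Of the genes not overlapped, H4c17 and H4c18 are thus near-identical in their promoter windows, while H2bc23 and H2ac24 were in none of the listed pairs. The assignment of reads to such copies was not examined, and its part in the missing regions was not tested.

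The 7 regions with the midpoint 1 to 5 kb from a histone gene were narrow, and none was in clusters 2 to 4. Clusters 2 to 4 held 16 of 20 regions with the midpoint inside a histone gene (80%, 56.3 to 94.3), 9 of 17 within 1 kb of one (52.9%, 27.8 to 77.0) and 0 of 7 at 1 to 5 kb (95% CI up to 41.0%). Beyond the 5 kb limit they held 4 of 20 at 5 to 20 kb (20%, 5.73 to 43.7) and 3 of 19 at 20 to 50 kb (15.8%, 3.38 to 39.6). Around other protein-coding genes the shares were 11.2% inside, where most genes are long, 29.6% within 1 kb, 3.98% at 1 to 5 kb, 4.21% at 5 to 20 kb and 4.20% at 20 to 50 kb. The sets are unlike beyond 5 kb, since regions there were not kept clear of genes other than histone genes. Of those 39 regions, 17 overlapped a transfer RNA (tRNA) gene, and 5 of the 17 were in clusters 2 to 4. Of the 22 that overlapped none, 2 were (9.09%). Median widths at the histone loci were 1940.5, 2085 and 448 bp inside, within 1 kb and at 1 to 5 kb.

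**Figure D5:**
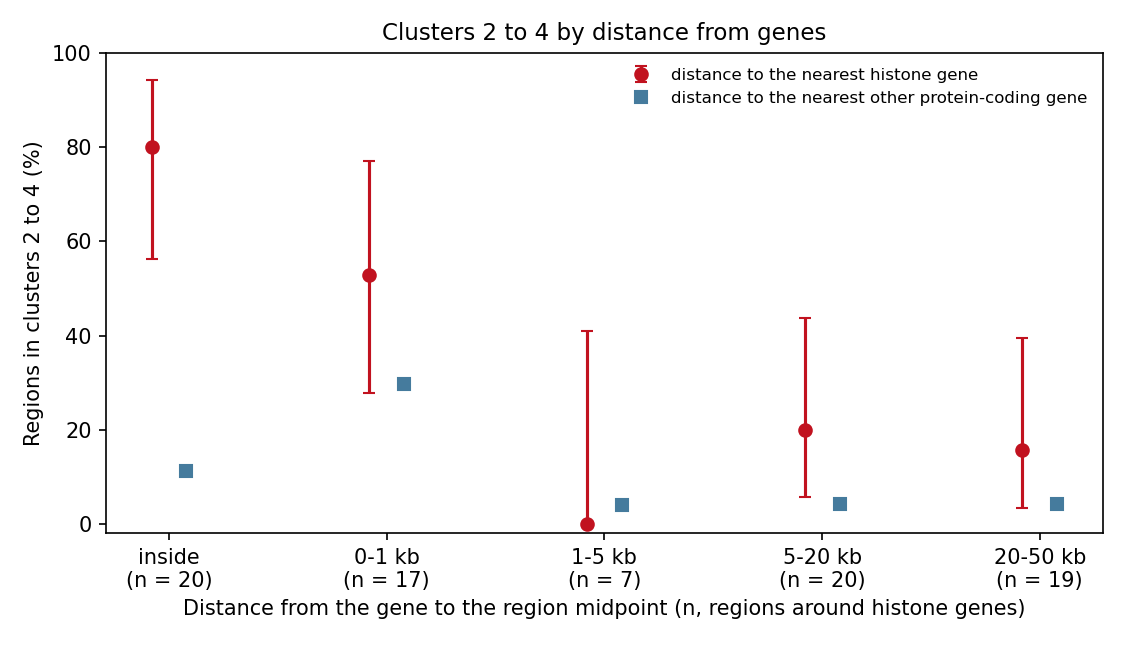
Share of regions in clusters 2 to 4 (%) by distance of the region midpoint from the nearest histone gene (with exact 95% binomial intervals and numbers of regions) and from the nearest other protein-coding gene. The share is 80% inside histone genes and 0 of 7 at 1 to 5 kb. Beyond 5 kb the regions around histone genes can lie on other genes, tRNA genes among them, so the 2 series are unlike there.

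The counted regions farthest from a gene were at 3028 bp from H4c18 (cluster 1), 3694.5 bp from H2bc21 (cluster 7) and 3790 bp from H2bc18 (cluster 6). The nearest regions left out were at 5073 bp from H2bc13 (cluster 3), 5387.5 bp from H4c8 (cluster 1) and 5652 bp from H4c18 (cluster 9). Another protein-coding gene lay within 5 kb of 4 of the 44 regions, either Hfe, which encodes an iron regulator, or the histone gene listed as H4bc24.

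The promoter windows of the histone types differed in the motifs they hold. Windows run from 250 bases before to 50 after the start, both strands were searched, and windows of back-to-back genes overlap, so a match can count for 2 genes. CCAAT was found for all 6 H1, 17 H2A, 14 H2B and 10 H3 genes with a window but for 3 of 11 H4 genes, against 38.2% of 21263 protein-coding windows. TATAAA was found for 34 of 58 genes, against 12.6% of windows. The octamer ATTTGCAT was found for 7 of 14 H2B and 6 of 17 H2A genes and for no H1, H3 or H4 gene, against 1.66% of windows. AAACACA was found for 5 of 6 H1 genes, all but H1f1, against 6.15% of windows, and for 4 other genes. GCGGACG was found for 0 of 58 genes, against 3.66%, and TGACGTCA for 4 of 58, against 2.23%. Only exact matches were counted. The printed H4c6 stretch holds GGTCCGC, which reads GCGGACC on the other strand and departs from GCGGACG in its last base. The count of 0 therefore does not show that H4 promoters lack a HINFP site. None of the motifs contains another.

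The octamer did not go with a single cluster. Of the 13 genes with it, 7 had their start in a cluster 3 region, 2 in a cluster 2 region, 2 in a cluster 5 region and the testis pair in a cluster 6 region. Counted by overlap and not by start, cluster 3 regions covered 7 of all 17 H2A and 10 of all 16 H2B genes. The 7 of 13 lies between these shares and is no trait of the octamer genes. In the sequences above the octamer stands in the stretch between H2ac8 and H2bc8 and in that of H2ac1. It is absent from the stretch between H2bc7 and H2ac7, although the H2ac8 and H2ac7 pairs lie in the same cluster 3 region. The AC box is in the printed H1f3, H1f2 and H1f6 promoters, whose genes had regions of clusters 3, 2 and 9, and in that of H2ac1. A match is a description of letters in a window and not of a bound site.

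Other histone genes and the genes that serve histone expression were set beside the clustered genes. Replication-independent histone genes encode variants whose synthesis is not confined to S phase. Of 12 matched, 9 had a region within 1 kb of a gene end, against 60.9% of all protein-coding genes. Of the 11 regions there, 4 were in clusters 2 to 4, against 31.4% of 13205 regions within 1 kb of a limit of any protein-coding gene, which is near the share in this list. H2ax and H2aj had regions of cluster 3, H2az1 of clusters 4 and 6, and H2az2 of cluster 2. H3f3a and Cenpa, the centromeric H3, had cluster 8 regions, H1f10 and Macroh2a1 cluster 1 regions, and H1f0 a region of each. Without a region midpoint near a gene end, H3f3b was still overlapped by a cluster 3 region. Macroh2a2 was overlapped by regions of clusters 9, 1 and 8, and H1f8 by none.

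All 24 genes of histone gene expression and histone mRNA processing had a region within 1 kb of a gene end, against 60.9% of all protein-coding genes. Of the 28 regions there, 16 were in clusters 2 to 4, against 31.4% of regions at gene ends in general. Cluster 2 held 7 (7.71% in general) and cluster 8 also 7 (21.9% in general), cluster 4 held 5 and cluster 3 held 4, and the median width was 1187.5 bp. Cluster 2 regions lay at Npat, the coactivator of the histone locus body, Casp8ap2, which encodes FLASH, Hinfp, an activator of H4 genes, Slbp, the stem-loop binding protein, Cdk2, and Nfya and Nfyb, subunits of the factor that binds CCAAT. Lsm11 of the U7 snRNP, Pou2f1, which binds the octamer, Zfp473 and E2f1 had cluster 3 regions. Lsm10, Cpsf2, Cpsf3, Sympk and Ccne1 had cluster 4 regions. Cluster 8 regions lay at Ncbp1, Eri1, Cstf2 and E2f4, which had a pair of them, and a further one at each of E2f1 and Sympk. Coil, the coilin gene, had a cluster 5 region. Nfyc, a further subunit of the CCAAT-binding factor, had a cluster 7 region of 245 bp at its gene end. Yy1 and Srrt had cluster 1 regions, and Slbp had a cluster 9 region besides that of cluster 2.

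The small histone group of chromosome 11 carries symbols that the rule does not match. There H2aw was overlapped by a cluster 4 region of 1153 bp (chr11:58954156-58955308), H2bu2 by a cluster 8 region of 908 bp and H3f4 by a cluster 1 region of 647 bp. The single H4 gene of chromosome 6, H4f16, was overlapped by a cluster 2 region of 1225 bp (chr6:136803496-136804720).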

How the data were processed

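ACC-seq of 6 mouse R1 embryonic stem cell libraries was analysed from the deposited table of regions. Per the submitters' processing notes, the tools were Bowtie2 2.3.3.1, cutadapt 1.18, SAMtools 1.6 and Picard, with the mm10 build. Region calling, merging and clustering are not given in the sources used here. In 1 table the authors deposited start, end and cluster name per region, with 0 repeated rows and no score, so depth and precision per library are unknown and no test between groups was possible.

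Starts were counted from 1. Genes and promoters came from RefSeq tables for GRCm38.p6, and 58 of 63 histone genes had a promoter. Gene distances run from the region midpoint to the gene limits, and overlaps use 1 bp. Promoter identity came from global alignment. Protein identity, planned, was not run because no protein sequences were at hand.

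The members and lists were chosen with earlier results of these data known. Named genes are those the symbol rule matches, those of the lists with a gene-end region, and other histone genes; of the list genes some are named by role. Of 14 replication-independent symbols 12 matched. Distances and hits were tested on simulated data. Python 3.11.15 with numpy 2.4.6, pandas 2.3.3, SciPy 1.17.1, Biopython 1.88 and matplotlib 3.10.9 was used.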

Additional observations from a re-analysis of the deposited data

How the results depend on the processing

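No paired analysis was possible because the table holds no value per library. The share of histone regions in cluster 3 stayed within its interval of 18.6 to 47.6 under all 10 alternatives (29.8% to 37.8%). Most alternatives reuse largely the same regions, so staying within so wide an interval was likely in advance. The share in clusters 2 to 4 stayed within its own under 9 of 10, from 52.7% with a 10 kb distance to 67.6% with 1 kb. It was 37.5% without the chromosome 13 locus. Without that locus the number of regions was 8 and their median width 1311.5 bp, and the other 9 alternatives gave medians of 1720 to 2020 bp. With 1 region per 10 kb 24 regions were left, and the other 8 alternatives gave 36 to 55. With pseudogenes and older Hist names, which add the chromosome 11 genes, 47 regions were counted. With a gene-end window of 500 bp, 43 of the 63 histone genes had a region, against 49.3% of all protein-coding genes. With 2.5 kb, 58 had one, against 69.8%. Counted by overlap, 57 had one, against 72.9%. The main limits are 8 regions on chromosome 3, near-identical gene copies and unknown depth.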

Other observations

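Transfer RNA genes lie among and around the chromosome 13 histone blocks. Within 50 kb of the histone blocks lay 39 further regions more than 5 kb from a histone gene, and 17 of them overlapped a tRNA gene, all among the 30 around the chromosome 13 blocks and none among the 9 around the chromosome 3 block. Of these 17, 5 were in clusters 2 to 4 (29.4%, exact 95% CI 10.3 to 56.0), with a median width of 1323 bp. Of the 22 that overlapped no tRNA gene, 2 were in clusters 2 to 4 (9.09%, 1.12 to 29.2), with a median width of 535.5 bp, and 8 were in cluster 9. Over the genome 64 of 168 regions at tRNA genes were in clusters 2 to 4 (38.1%, 30.7 to 45.9). Among the 44 histone regions 1 overlapped a tRNA gene, the cluster 2 region over H4c8.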
